A study of Mus musculus with 20 samples.

Results

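Integrins are the receptors, and laminins the basement membrane proteins, through which adherent cells hold on to their matrix. RNA-seq followed their messages in the mouse preadipocyte line 3T3-L1, whose cells fill with lipid and become adipocytes in culture, and in which the transcription factor Tcf7l2 had been silenced. The genes described are those named as an integrin alpha or beta chain or as a laminin alpha, beta or gamma chain. Of 33581 genes in each of the 5 deposited tables, 37 carried such a name, and 31 of these reached a mean of 10 or more normalised counts in 1 or more tables. They are 16 integrin alpha, 7 integrin beta and 8 laminin chains. The other 6, Itga9, Itgax, Itgb6, Lama1, Lama3 and Lamc3, stayed below the minimum. Just inside it lay Itga4, with a highest table mean of 13.1 normalised counts, and just outside it Itga9 with 9.67.

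An integrin is a pair of 1 alpha and 1 beta chain, and the pair sets the ligand. Integrin beta1 pairs with most alpha chains, alpha3, alpha6 and alpha7 with beta1 bind laminins, alpha5 with beta1 binds fibronectin, and the alphaV pairs bind vitronectin and other ligands with an RGD sequence. A laminin is a trimer of 1 alpha, 1 beta and 1 gamma chain and a component of the basement membrane, a layer that surrounds each adipocyte. During adipogenesis preadipocytes leave a fibronectin-rich matrix and build a basement membrane, and a switch from integrin alpha5 to integrin alpha6 is a known part of that step.

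The study has 10 groups of 2 libraries, 20 libraries in all. Scrambled cells (the label "shRNA - Scrambled") and knockdown cells ("shRNA - Tcf7l2") were sampled at days 0, 2, 4, 6 and 8 of differentiation. Both arms carry a stably integrated SMARTvector lentivirus, were selected with puromycin and are mixed populations rather than clones. The differentiation medium did not routinely contain a thiazolidinedione, a drug class that activates Pparg. The labels name 1 knockdown construct for these libraries, so an effect of its hairpin or vector cannot be told apart from loss of Tcf7l2. Whether libraries of the same group were grown as separate cultures is not stated in them, and p-values therefore reflect a spread among samples that could be technical. In RNA from whole cultures, fewer cells of a type and less RNA per cell cannot be told apart.

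Promoter sequence is shown for 4 chains of the averaged comparison between the arms described further on: Itgb1, Itga3 and Lama5, which were higher in knockdown cells, and Lama2, which was lower. Each line holds the 250 bases before a transcription start in RefSeq (build GRCm38.p6; the deposited tables were made on mm9), written 5′ to 3′ on the gene's strand, and capitals mark the Tcf/Lef core CTTTGA on either strand. Itgb1 lies at chr8:128685404-128685653 (plus strand), Itga3 at chr11:95076715-95076964 (minus strand), Lama5 at chr2:180225860-180226109 (minus strand) and Lama2 at chr10:27616943-27617192 (minus strand).
Itgb1: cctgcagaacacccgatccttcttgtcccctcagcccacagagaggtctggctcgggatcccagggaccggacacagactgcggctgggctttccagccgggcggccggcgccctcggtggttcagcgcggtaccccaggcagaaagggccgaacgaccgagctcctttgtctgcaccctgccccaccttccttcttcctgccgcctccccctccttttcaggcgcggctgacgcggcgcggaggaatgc
Itga3: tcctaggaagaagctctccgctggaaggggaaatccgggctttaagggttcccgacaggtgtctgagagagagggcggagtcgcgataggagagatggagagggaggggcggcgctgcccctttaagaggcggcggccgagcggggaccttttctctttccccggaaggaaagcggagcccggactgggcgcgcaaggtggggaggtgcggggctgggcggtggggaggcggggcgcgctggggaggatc
Lama5: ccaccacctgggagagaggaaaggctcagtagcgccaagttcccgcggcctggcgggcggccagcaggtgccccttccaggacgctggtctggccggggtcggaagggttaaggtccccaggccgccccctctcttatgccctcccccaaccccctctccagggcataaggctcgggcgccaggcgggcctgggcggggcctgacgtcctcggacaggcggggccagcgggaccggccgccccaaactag
Lama2: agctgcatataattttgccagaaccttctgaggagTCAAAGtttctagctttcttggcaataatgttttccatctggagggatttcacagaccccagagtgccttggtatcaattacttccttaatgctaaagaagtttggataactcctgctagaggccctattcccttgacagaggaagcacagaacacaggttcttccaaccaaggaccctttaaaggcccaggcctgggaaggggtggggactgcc
RefSeq has a second window for Itga3 (chr11:95069199-95069448, minus strand), not printed, which is 50.8% G and C and also lacks the core. The first 3 printed windows hold none of the 6 letters in order and are rich in G and C (68.0%, 67.6% and 72.4%), against a median of 52.4% over all RefSeq windows. The Lama2 window is 47.2% G and C and holds the core on the opposite strand, printed as TCAAAG, with its first base at -215 from the start. RefSeq windows were matched for 20 of the 31 chains, with 22 windows in all, of which 4 held the core (in Itga1, Itga10, Itgam and Lama2), against 13.8% of 32851 windows of all genes. The C/EBP core TTGCNNAA stood in 0 of the 22 and in 9.56% of all windows, and the DR1 element, the site of Pparg with its partner, in 0 of the 22 and in 0.0335% of all windows. Both strands were searched for each motif. These matches describe letters only.

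Library totals ranged from 20153362 to 33973608 reads. Tcf7l2 itself was below both scrambled libraries in each knockdown library on all 5 days, at 31.8% to 38.9% of the scrambled mean. Adipocyte markers showed the course of differentiation: the summed level of 8 markers ran from 592 to 26200 RPM (recovered reads scaled to the library total) in scrambled libraries and from 349 to 5030 in knockdown libraries. All 8 were lower in knockdown cells averaged over the days (limma, adjusted p under 0.05), with a median log2 difference of -1.40. Markers that define other cell types were low: the 10 of 11 leukocyte markers found in the tables summed to 4.55 to 18.8 RPM in scrambled and 8.62 to 21.1 in knockdown libraries. Emr1, Cd3e and Tyrobp had 0 reads and Ptprc 15 over all libraries, while Cd14 and Lyz2 reached 12.2 and 8.44 RPM. Endothelial markers summed to 0.328 to 1.98 RPM, platelet markers to 2.105 to 6.996, epithelial markers to 0 to 1.64 and myogenic markers to 1.64 to 38.8, the last mostly Des, with Myod1 at 0 reads. From day 4 on the scrambled libraries numbered 2 stood apart from those numbered 1. At day 8 Adipoq, an adipocyte hormone, read 899.8 RPM in scrambled library 1 and 3307 in library 2, against 248 and 417 in the knockdown libraries. The SD across genes of the difference between libraries of a group was 0.598 in scrambled and 0.263 in knockdown cells at day 8. At day 2 it was 0.199 and 0.189. Values of each day were transformed separately, so SDs compare between the arms of a day and not between days. Results that rest on the late scrambled libraries numbered 2 are given with and without them below, as an alternative chosen after the data were seen.

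Per length of exon, the receptor and matrix messages of these cells were dominated by a few chains. Averaged over the 20 libraries, Itgb1 led with 176 RPKM (RPM per kilobase of exon). The laminin chains Lamc1 (97.9), Lamb1 (75.3) and Lama4 (53.9) followed, then Itga5 (53.2), the fibronectin receptor chain. Itgb5 (32.4) and Lamb2, then Itga6 (23.0), Itgav (15.2) and Itgb3 (11.5) came next, and each of the remaining 21 chains averaged 3.1 RPKM or less. Lama4, Lamb1 and Lamc1 are the chains of the trimer known as laminin-411, and Lama4, Lamb2 and Lamc1 those of laminin-421. Lama4 made up 94.3% to 98.3% of the laminin alpha RPKM in every group. Among the beta chains Lamb1 held 58.2% to 81.0% and Lamb2 nearly all of the rest. Itgb1 held 70.8% to 85.8% of the integrin beta RPKM. The ranges of neighbouring chains in this order overlapped widely, as the plot of levels shows, so only the broad order is readable. Exon lengths were taken from GENCODE M21 and not from the authors' annotation. Some chains share exons with another gene there: 68.7% of the Itgam exon bases lie in Gm49368 and 33.5% of those of Itga10 in Gm42957. Their levels are uncertain, since the counting is not given in the sources used here and the kit does not mark strand.

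**Figure D1:**
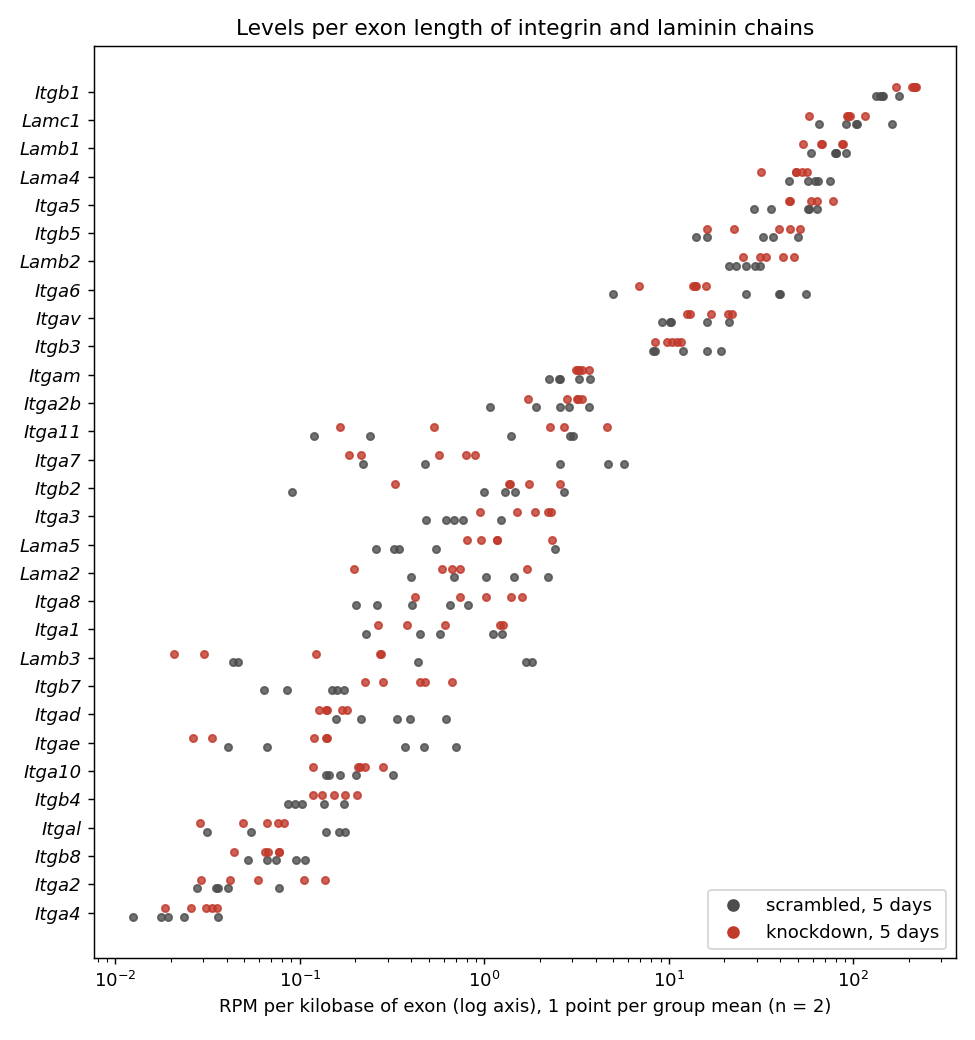
Mean level of each of 30 chains in each of the 10 groups (n = 2 libraries per point), in RPM per kilobase of exon on a log axis, grey for scrambled and red for knockdown groups. Itgb1, Lamc1, Lamb1, Lama4 and Itga5 lie at the top, and Itga4, Itga2 and Itgb8 at the bottom.

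In scrambled cells laminin messages rose and several integrin messages fell after induction. Between day 0 and day 2, 11 of the 31 chains passed the test (limma voom on recovered reads, Benjamini-Hochberg adjusted p under 0.05 over 16497 genes), 5 higher and 6 lower. Of all genes tested 24.7% passed, 11.1% higher and 13.6% lower. All 4 laminin chains that passed, of 8, were higher, among them Lama4, Lama5 and Lamc1, and 6 of the 7 integrin chains that passed were lower (Itga3, Itga11, Itga2b, Itgav, Itgb2 and Itgb5 of 23). The median log2 change was 0.76 over the 8 laminins, -0.73 over the 23 integrins and 0.01 over all genes.

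Lamc1, the gamma chain shared by most laminins, read 393 and 681 RPM in the scrambled libraries of day 0 and 1245 and 1426 at day 2. The rise was 1.46 on the log2 scale (SE 0.264, adjusted p = 0.0016). Lama5, the alpha chain of many epithelial and vascular laminins, went from 5.16 and 7.22 RPM to 22.9 and 32.2, a log2 change of 2.22 (adjusted p = 0.0055). It was back at 5.54 and 2.31 RPM by day 4, so its day 2 level was a single peak in scrambled cells. In knockdown cells it read 19.0 and 34.2 RPM at day 2, and these libraries overlapped with those of day 0. The knockdown mean went from 13.3 to 26.6 RPM, 2.00-fold, against 4.45-fold in scrambled cells. The time course of knockdown cells was not tested. Lama4 rose by 0.60 (adjusted p = 0.0454), a call that among the leave-one-out fits remained only without scrambled library 2 or either knockdown library of day 0, or either scrambled library of day 8. It ended in the other 15 (0.24, adjusted p = 0.410 without scrambled library 1 of day 0), with quantile normalization (0.38, adjusted p = 0.226), with total reads as scaling (0.52), with no filter or a filter at 50 (adjusted p = 0.0523 and 0.0564), and without the late scrambled libraries numbered 2 (adjusted p = 0.0506).

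The integrins that fell by day 2 did so by large factors. Itgb2, the common beta chain of leukocyte integrins, dropped from 7.99 and 8.50 RPM to 0.172 and 0.383 (4 and 13 reads), 29.7-fold. Itga11, a receptor for fibrillar collagen on fibroblasts, dropped from 17.2 and 12.6 RPM to 0.688 and 0.530, 24.5-fold. Both rose again later: Itga11 read 24.0 and 7.06 RPM at day 8, and Itgb2 6.39 and 2.50. For Itga11, library 1 of day 8 lay above both day 0 libraries and library 2 below both. For Itgb2 both day 8 libraries were still below both of day 0. Itgb5, a beta chain that pairs with alphaV to bind vitronectin, fell 3.59-fold, from 170 and 188 RPM to 46.7 and 53.0 (log2 change -1.75, SE 0.146, adjusted p = 8.63e-06). Its partner Itgav fell 2.09-fold, from 210 and 246 RPM to 117 and 102, with no overlap between the days. Itga3, a laminin receptor chain, fell 2.53-fold, and Itga2b, the platelet fibrinogen receptor chain, 3.46-fold. Markers of blood cells moved beside Itgb2 and Itga2b. Of 4 leukocyte markers tested Lyz2 and Csf1r were lower at day 2, and their list summed to 17.7 and 15.1 RPM at day 0 and 4.55 and 5.62 at day 2. Of 3 platelet markers tested Ppbp and Gp1bb were lower, and that list went from 6.996 and 5.79 RPM to 2.105 and 3.53. Most of its reads came from Gp1bb, with 2058 over all libraries against 157 for Ppbp, 109 for Pf4 and 12 for Gp9. The leukocyte and platelet markers are too few to set against the 13.6% of all genes that were lower. Their part in the falls of Itgb2 and Itga2b was not tested.

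Itga6 was the 1 integrin that rose by day 2. It read 41.7 and 48.0 RPM in scrambled cells at day 0, 236 and 238 at day 2, 186 and 522 at day 4, 343 and 659 at day 6 and 128 and 592 at day 8. Every later library lay above both day 0 libraries. The log2 change was 2.49 at day 2 (SE 0.605, adjusted p = 0.0095) and 2.99 for the mean of days 4, 6 and 8 (SE 0.490, adjusted p = 0.0019). Its share of the integrin alpha RPKM went from 5.2% at day 0 to 24.6% at day 2 and 49.5% (SD 17.3) at day 6. At day 8 that share was 35.1% (SD 29.8). The share of Itga5 was 59.3%, 59.5%, 27.0% (SD 13.1) and 33.7% (SD 21.9) at days 0, 2, 6 and 8. Both shares thus differed widely between the scrambled libraries of day 8. Itga5 itself read 291 and 272 RPM at day 0 and 182 and 103 at day 6. The late fall of Itga5 did not pass (log2 change -0.57, adjusted p = 0.0857), but passed with the replicate number as a block (adjusted p = 0.0279) and without scrambled library 1 of day 6 (adjusted p = 0.0282) or of day 8 (-0.75, adjusted p = 0.0034).

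Over the late course, the mean of days 4, 6 and 8 against day 0, 14 of the 31 chains passed, 8 higher and 6 lower, against 25.3% of all genes (12.1% higher, 13.2% lower). The 5 laminins that passed were again all higher, among them Lama2 (1.93), Lamc1 (0.73), Lama4 (0.62) and Lamb1 (0.61 on the log2 scale). Itga6, Itga7 and Itga1 were the integrins that were higher. Itga7, a laminin receptor chain best known from muscle, rose by 3.83 (SE 1.25, adjusted p = 0.0399) from 1.49 and 2.05 RPM at day 0. It read 8.46 and 32.9 RPM at day 4, 18.9 and 56.7 at day 6 and 9.02 and 83.1 at day 8, with library 2 the higher on each day. Itga1, a receptor for the collagen IV of basement membranes, rose 2.18-fold, by 1.07 (adjusted p = 0.0128). The integrins that were lower were Itgb5 (-0.88), Itgav (-0.88), Itga3 (-0.85), Itgb3 (-1.04), Itgb2 (-1.15) and Itga11 (-1.57).

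Many of these calls were lost when a single library of day 0 or 2 was left out. Such a fit leaves 1 library in that group, so a call can end with little change in the estimate. Over the 20 fits the day 2 change of Itga3 ran from -1.32 to -1.19 and that of Itga6 from 2.38 to 2.61. That of Lama4 moved more, from 0.24 to 0.94. Lamc1, Itgb5, Itgb2 and Itga11 kept their day 2 calls in all 20 fits that left out 1 library. Without scrambled library 2 of day 2 the day 2 comparison called 4 chains, and the calls lost included Itga2b, Itga3, Itga6, Itgav, Lama5 and Lama4 (adjusted p = 0.0681, 0.0917, 0.0628, 0.148, 0.0542 and 0.182). The calls of Itga3 (adjusted p = 0.0670) and Itgav (0.147) also ended without scrambled library 2 of day 0, those of Itga6 (0.0501) and Itgav (0.0600) without library 1 of day 0, and that of Itgav without library 1 of day 2 (0.0702). In the late comparison Itga6 and Itgb5 were called in all 20 fits. Without scrambled library 1 of day 0 it called 3 chains. Lama2, Lama4, Lamb1 and Lamc1 then changed by 1.28, 0.26, 0.24 and 0.30 and did not pass, while without library 2 of day 0 the last 3 changed by 0.96, 0.96 and 1.12. Without library 2 of day 0 it called 6 chains, with Itgb2 lost (adjusted p = 0.0592). Itga1, Itga3, Itgav, Itgb3, Itga11 and Itga7 were lost without either of these libraries, with adjusted p from 0.0661 for Itgb3 to 0.196 for Itga7. Lamb1 (adjusted p = 0.0514), Itga11 (0.0527) and Itga7 (0.0626) were lost without scrambled library 2 of day 4, and Itga11 (0.0501) and Itga7 (0.0645) without that of day 6. The call of Itga7 also ended without any 1 knockdown library of days 2, 6 and 8 (adjusted p = 0.0509 to 0.0524) and with a filter at 50 (adjusted p = 0.0519). Without the 6 libraries numbered 2 of days 4, 6 and 8, 9 chains were called in the late comparison, with Itga3, Itgav, Lama4, Lamb1 and Lamc1 among those lost and Lamb3 gained. Without the 3 scrambled ones of these 11 were called, and Itga3 fell by 0.51 (adjusted p = 0.0881). Itga11 and Lamb1 were also among the calls lost without these 3 scrambled libraries, and Lamb3 was gained. The replicate block added Itga8 and Lamb1 at day 2 and Itga10, Itga2b, Itga5, Itgad, Itgae, Itgb1 and Lamb3 late.

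**Figure D2:**
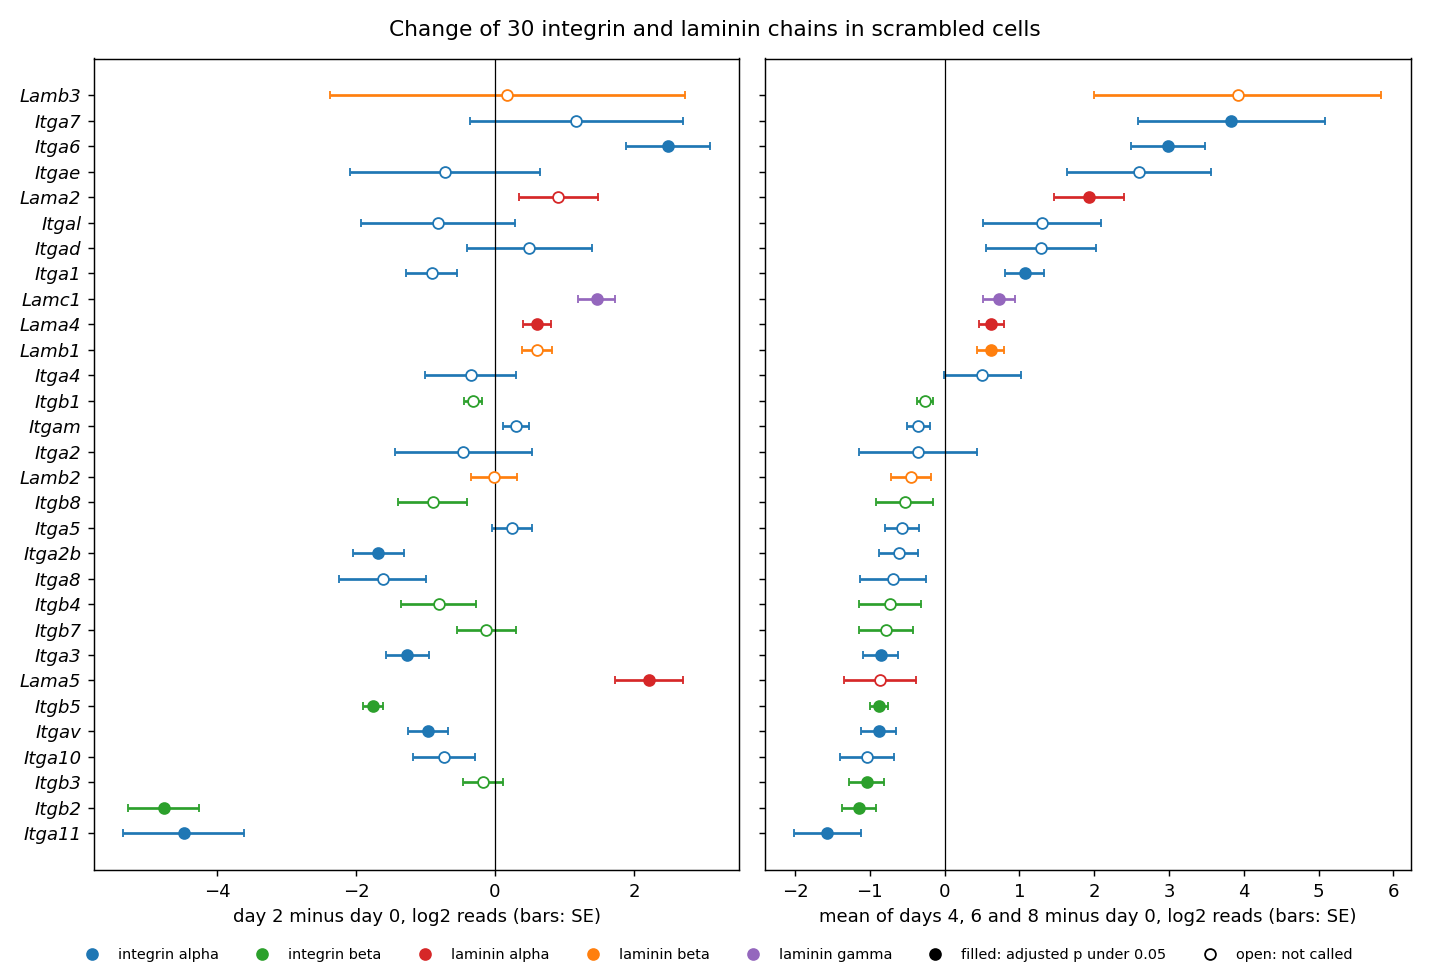
Log2 change of 30 chains in scrambled cells, with the SE as bars, for day 2 against day 0 (left) and for the mean of days 4, 6 and 8 against day 0 (right). Filled points passed an adjusted p of 0.05: 10 on the left and 13 on the right, with every called laminin to the right of 0.

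Silencing of Tcf7l2 went with higher Itga3, Itgb1, Itga8, Itgb7, Lama5, Itgb5 and Itgav, and with lower Itga7, Itga6, Itgae, Lama2 and Lama4, averaged over the 5 days. That is 12 of 31 chains (limma on the deposited log2 values, day entered as a factor, n = 10 libraries in each arm), 7 higher and 5 lower, against 25.4% of all genes tested (12.3% higher, 13.2% lower). The median log2 difference was 0.08 over the 31 chains, 0.16 over the 23 integrins, -0.18 over the 8 laminins and -0.00 over all genes. By class, 3 of 16 integrin alpha chains were higher and 3 lower, 3 of 7 beta chains were higher, and of the laminins Lama5 was higher and Lama4 and Lama2 lower. Markers of preadipocytes or fibroblasts moved in the same comparison: 5 of 8 were higher (Ly6a, Col1a1, Vim, Cd34 and Thy1), Pdgfra was lower, and the median was 0.35. Their summed level ran from 6135 to 19270 RPM in scrambled and from 8217 to 16980 in knockdown libraries, and their part in the differences of the chains was not tested. The deposited values compress low genes, so differences below are smaller than the ratios of the RPM levels.

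**Figure D3:**
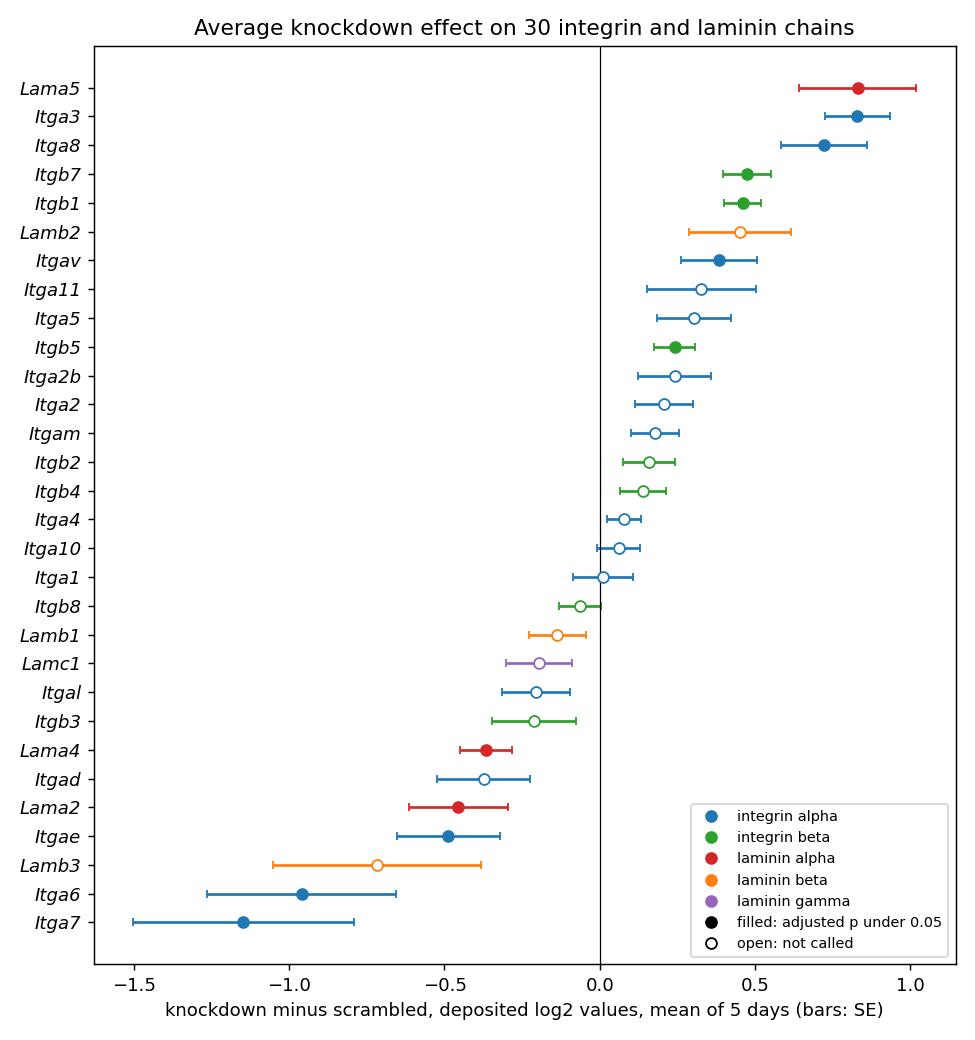
Knockdown minus scrambled difference of each of 30 chains in the deposited log2 values, averaged over 5 days, with the SE as bars. The 12 filled points passed an adjusted p of 0.05, from Lama5 and Itga3 (both 0.83) to Itga7 (-1.15).

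Among the laminin receptors, Itga3 (ENSMUSG00000001507.9), an alpha chain that with beta1 binds laminins, had the smallest adjusted p of the 31 chains. In scrambled cells it read 6.75 and 7.25 RPM at day 0, 2.88 and 2.65 at day 2, 4.64 and 3.13 at day 4, 5.98 and 2.79 at day 6 and 4.38 and 2.70 at day 8. In knockdown cells it read 11.4 and 14.9, 4.88 and 5.95, 7.83 and 9.40, 11.9 and 13.5, and 10.1 and 11.3 RPM on the same days. Both knockdown libraries lay above both scrambled libraries on every day, with ratios of the means from 1.87 to 3.02. The averaged difference was 0.83 (SE 0.105, adjusted p = 3.48e-05).

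Itgb1 (ENSMUSG00000025809.8), the common beta chain, followed the same order of the arms at a far higher level. Its scrambled libraries read 701 and 733 RPM at day 0, 524 and 560 at day 2, 651 and 519 at day 4, 624 and 511 at day 6 and 671 and 514 at day 8. Its knockdown libraries read 868 and 876, 678 and 713, 849 and 840, 878 and 871, and 846 and 944 RPM. The arms did not overlap on any day, and the ratio of the means ran from 1.22 to 1.54. The averaged difference was 0.46 (SE 0.0609, adjusted p = 5.13e-05).

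Itga6 (ENSMUSG00000027111.8) and Itga7 (ENSMUSG00000025348.7), the chains that rose in scrambled cells, stayed lower in knockdown cells. Itga6 in knockdown cells read 50.4 and 73.6 RPM at day 0, 126 and 129 at day 2, 102 and 148 at day 4, 121 and 164 at day 6 and 94.3 and 149 at day 8. At day 0 both knockdown libraries were above both scrambled ones, on days 2, 4 and 6 both were below, and at day 8 the arms overlapped. The scrambled mean was 1.87-fold the knockdown mean at day 2 and 3.51-fold at day 6. The averaged difference was -0.96 (SE 0.304, adjusted p = 0.0296).

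Itga7 in knockdown cells read 1.32 and 2.16 RPM at day 0, 1.36 and 1.62 at day 2, 3.40 and 5.78 at day 4, 6.67 and 7.75 at day 6 and 4.99 and 7.79 at day 8. The arms overlapped at day 0, and the knockdown libraries were the lower on the 4 later days. The scrambled mean was 2.59-fold the knockdown mean at day 2 and 7.21-fold at day 8. The averaged difference was -1.15 (SE 0.355, adjusted p = 0.0267). Itgb4, the beta chain that pairs with alpha6 in epithelia, was rare in both arms (0.344 to 1.60 RPM) and did not pass (adjusted p = 0.174).

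Both differences were smaller without the scrambled libraries numbered 2 of days 4, 6 and 8, the ones with the most adipocyte marker reads. Then Itga7 differed by -0.47 (adjusted p = 0.0136) and Itga6 by -0.43, which did not pass (adjusted p = 0.116). Without the 6 libraries of both arms the values were -0.52 (adjusted p = 0.0177) and -0.52 (adjusted p = 0.0964). The call of Itga6 also ended without any 1 of 6 libraries: scrambled library 2 of day 4 or 6, knockdown library 1 of day 4, 6 or 8, or knockdown library 2 of day 6. That of Itga7 ended without scrambled library 2 of day 4 or 6, or knockdown library 1 of day 6 or 8. The summed adipocyte markers moved with both chains: at day 8 they read 6083 and 26200 RPM in scrambled libraries 1 and 2 and 2389 and 3831 in the knockdown libraries. Their part in the differences of Itga6 and Itga7 was not tested.

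**Figure D4:**
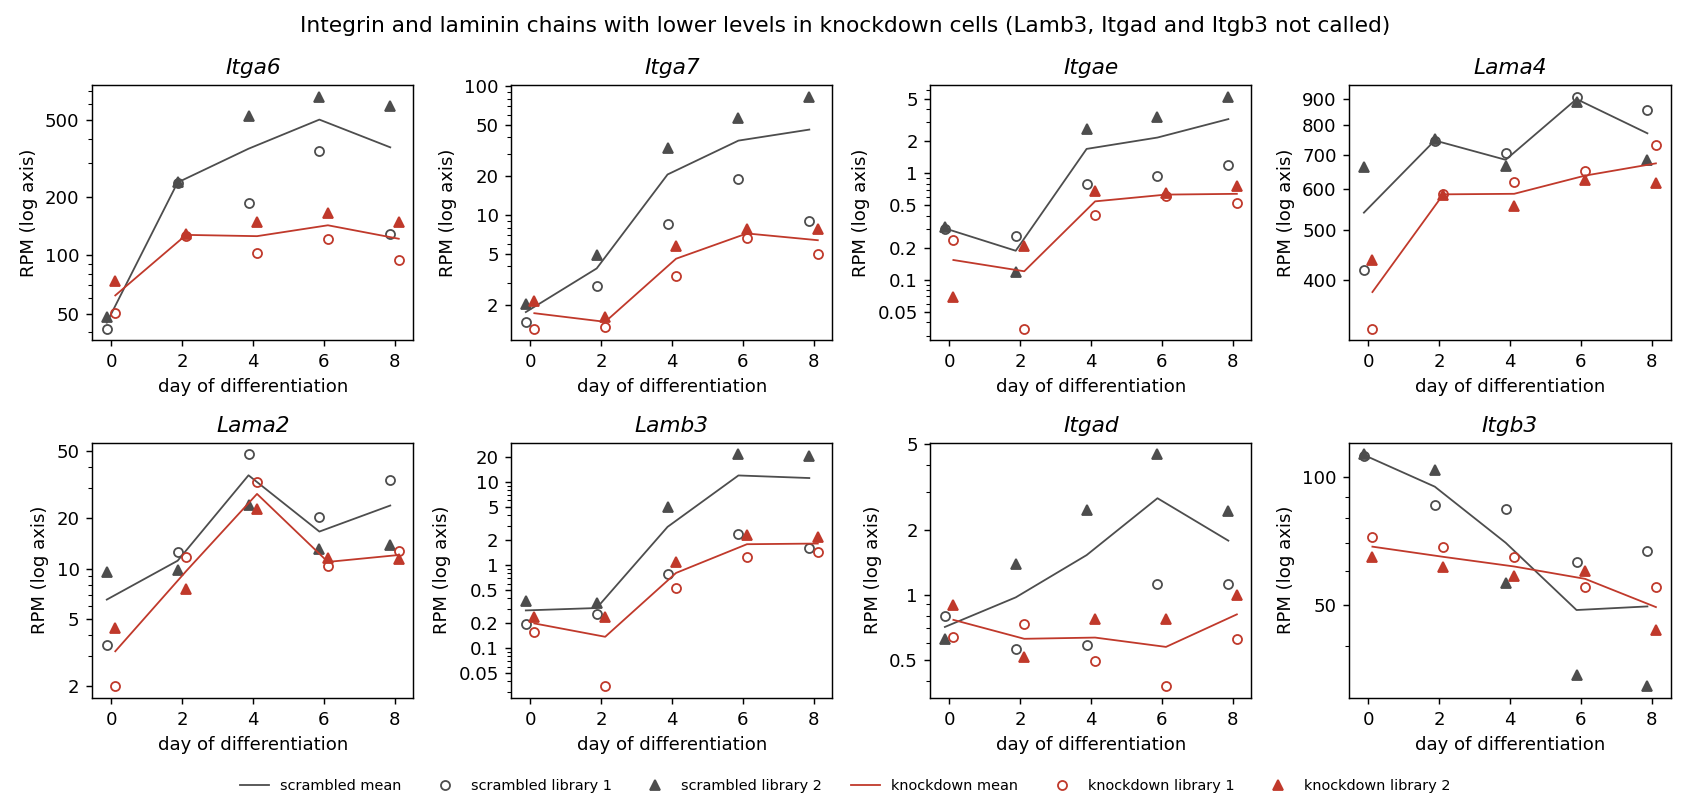
RPM on a log axis against day of differentiation for 8 chains with a negative averaged difference. They are Itga6, Itga7, Itgae, Lama4, Lama2, Lamb3, Itgad and Itgb3, of which Lamb3, Itgad and Itgb3 were not called in that comparison. Circles stand for library 1, triangles for library 2 and lines for group means (n = 2), grey for scrambled and red for knockdown. Itga6 and Itga7 separate from day 2 to day 6, with the scrambled libraries numbered 2 the highest from day 4 on.

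Besides Itgb1, the chains of RGD receptors that passed were Itga8, Itgb5 and Itgav, all higher in knockdown cells. Itga5, Itga2b, Itgb3 and Itgb8 did not pass, and the differences of Itgb3 and Itgb8 were negative. These chains are too few to set against the 25.4% of all genes. Itga8 (ENSMUSG00000026768.4), which with beta1 binds nephronectin and fibronectin, read 4.62 and 5.01 RPM at day 0, 1.59 and 1.38 at day 2, 2.65 and 1.20 at day 4, 4.30 and 1.65 at day 6 and 8.98 and 3.00 at day 8 in scrambled cells. In knockdown cells it read 12.4 and 8.08, 3.94 and 2.27, 6.68 and 4.17, 9.16 and 5.83, and 14.1 and 9.39 RPM. The arms did not overlap on any day, and library 1 was the higher in every group except scrambled day 0. The ratio of the means ran from 1.96 to 2.82 and the averaged difference was 0.72 (SE 0.140, adjusted p = 0.0016).

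Itgb5 and Itgav, partners in the vitronectin receptor, differed by less. Itgb5 was higher by 0.24 (SE 0.0652, adjusted p = 0.0137), with no overlap between the arms on 4 of 5 days, and read 80.8 and 80.1 RPM in knockdown against 64.4 and 49.4 in scrambled libraries at day 4. Itgav was higher by 0.38 (SE 0.123, adjusted p = 0.0315), with no overlap on 3 days. At day 8 its scrambled libraries read 240 and 106 RPM and its knockdown libraries 251 and 195, so the arms overlapped. Without the scrambled libraries numbered 2 of days 4, 6 and 8, Itgb5 differed by 0.15 (adjusted p = 0.0469) and Itgav by 0.19 (adjusted p = 0.148). Without the 6 libraries of both arms the call of Itgb5 ended too (0.14, adjusted p = 0.125). The call of Itgav ended without any 1 of 7 libraries, namely scrambled library 2 of day 4, 6 or 8, knockdown library 1 of day 4, 6 or 8, or knockdown library 2 of day 6.

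Itga5 and Itgb3 did not pass in the averaged comparison. Itga5, the abundant fibronectin receptor chain, differed by 0.30 (adjusted p = 0.0686). It passed with the replicate block (adjusted p = 0.0454) and without scrambled library 1 of day 8 (adjusted p = 0.0189). At day 6 it read 228 and 214 RPM in knockdown and 182 and 103 in scrambled cells. Itgb3, the other main partner of alphaV, differed by -0.21 (adjusted p = 0.257). At days 0 and 2 its knockdown libraries were below both scrambled ones, with 72.4 and 64.8 against 112 and 113 RPM at day 0, while at day 6 the knockdown libraries lay between scrambled libraries 1 and 2. It passed, as lower, without the late scrambled libraries numbered 2 and without the 6 late libraries of both arms. Itgb8, which pairs with alphaV and is known for activating TGF-beta, was rare (0.300 to 1.41 RPM) and differed by -0.06 (adjusted p = 0.514), passing only without the late scrambled libraries numbered 2.

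Of the collagen receptor chains Itga1, Itga2, Itga10 and Itga11, 0 of 4 passed, a number too small to set against the 25.4% of all genes. Itga1 differed by 0.01, Itga10 by 0.06, Itga2 by 0.21 (adjusted p = 0.112) and Itga11 by 0.33 (adjusted p = 0.175). With the replicate block Itga2 (adjusted p = 0.0480) and Itga11 (adjusted p = 0.0391) passed. Itga2 was read 1 to 26 times in a library.

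**Figure D5:**
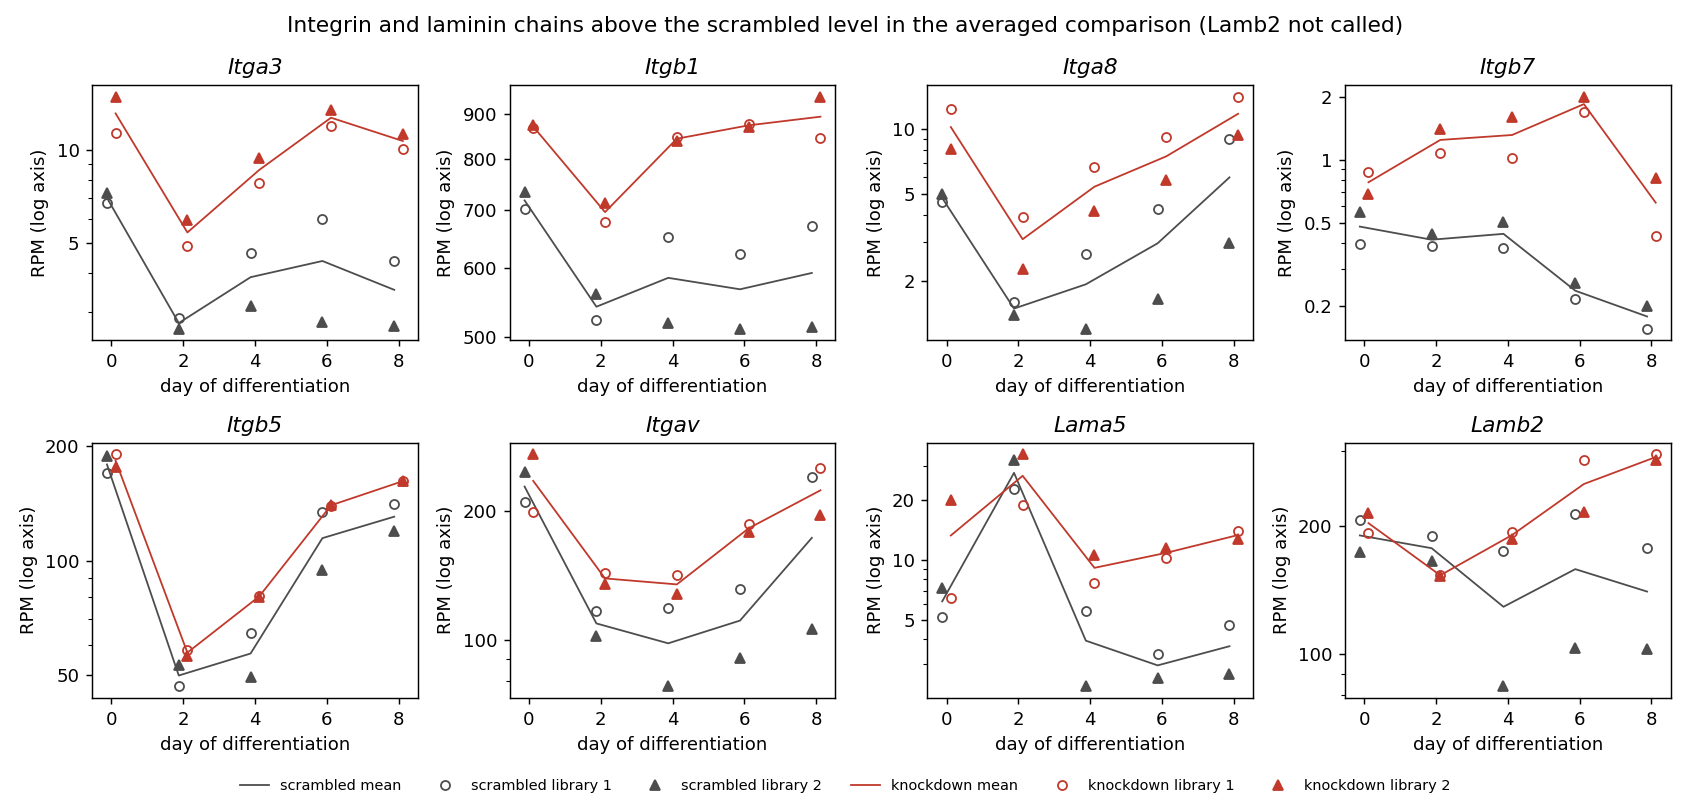
RPM on a log axis against day of differentiation for 8 chains with a positive averaged difference, circles for library 1, triangles for library 2 and lines for group means (n = 2), grey for scrambled and red for knockdown. Itga3, Itgb1, Itga8 and Itgb7 show no overlap between the arms on any of the 5 days.

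Chains best known from blood cells were read at low levels, and 2 of 8 passed, a share near the 25.4% of all genes. Itgb7 (ENSMUSG00000001281.3), the beta chain of gut-homing lymphocyte integrins, had 4 to 18 reads in a scrambled library and 9 to 68 in a knockdown library. Its scrambled libraries read 0.397 and 0.560 RPM at day 0, 0.387 and 0.442 at day 2, 0.378 and 0.505 at day 4, 0.215 and 0.257 at day 6 and 0.155 and 0.200 at day 8. Its knockdown libraries read 0.877 and 0.685, 1.08 and 1.41, 1.02 and 1.61, 1.69 and 2.01, and 0.431 and 0.815 RPM. The arms did not overlap on any day, and the ratio of the means was 1.63 at day 0 and 7.85 at day 6. The averaged difference was 0.47 in the deposited values (SE 0.0776, adjusted p = 3.93e-04) and 1.65 on the uncompressed recovered reads (adjusted p = 6.83e-05).

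Itgae, the alpha chain that pairs with beta7, was lower instead, by 0.49 (SE 0.166, adjusted p = 0.0405). At day 8 it read 1.20 and 5.23 RPM in scrambled and 0.527 and 0.755 in knockdown cells, and the knockdown libraries were the lower on 4 of 5 days. Without the late scrambled libraries numbered 2 the difference was -0.18 (adjusted p = 0.0311). Its call ended with no filter on low genes (adjusted p = 0.0535). It ended too without any 1 of 9 libraries: scrambled library 2 of day 4 or 6, knockdown library 2 of day 0, or any knockdown library of days 4, 6 and 8. Itga4, Itgad, Itgal, Itgam, Itgb2 and Itga2b did not pass, with adjusted p from 0.0744 for Itgad to 0.307 for Itga4. Itgad, at 0.376 to 4.47 RPM, passed with the replicate block (-0.37, adjusted p = 0.0356) and without scrambled library 1 of day 4 (adjusted p = 0.0430). Of the 4 leukocyte markers tested 1 passed, Cd14, which was higher by 0.48 (adjusted p = 0.0123), in the direction of Itgb7. Ptprc, Cd3e, Emr1 and Tyrobp were at or near 0 in both arms.

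The laminin alpha chains went different ways. Lama5 (ENSMUSG00000015647.8) read 5.16 and 7.22 RPM at day 0, 22.9 and 32.2 at day 2, 5.54 and 2.31 at day 4, 3.35 and 2.53 at day 6 and 4.69 and 2.67 at day 8 in scrambled cells. In knockdown cells it read 6.41 and 20.2, 19.0 and 34.2, 7.71 and 10.6, 10.2 and 11.6, and 14.1 and 12.7 RPM. The arms overlapped at days 0 and 2 and separated on the later days, when the knockdown mean was 2.33 to 3.70 times the scrambled mean. The averaged difference was 0.83 (SE 0.188, adjusted p = 0.0048), and 0.56 without the 6 late libraries numbered 2, which did not pass (adjusted p = 0.102).

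Lama4 (ENSMUSG00000019846.5), the main alpha chain, was lower by 0.37 (SE 0.0840, adjusted p = 0.0052). Its scrambled libraries read 419 and 663 RPM at day 0, 743 and 750 at day 2, 705 and 665 at day 4, 909 and 888 at day 6 and 858 and 685 at day 8. Its knockdown libraries read 322 and 437, 589 and 585, 619 and 558, 651 and 626, and 731 and 617 RPM. The arms did not overlap on days 2, 4 and 6, and the knockdown mean was 70.1% to 87.4% of the scrambled mean. Without the scrambled libraries numbered 2 of days 4, 6 and 8 the difference was -0.39 (adjusted p = 0.0075).

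Lama2, the alpha chain of the laminin around muscle fibres and nerves, was lower by 0.46 (SE 0.160, adjusted p = 0.0455). At day 8 it read 33.6 and 13.9 RPM in scrambled and 12.8 and 11.4 in knockdown cells, and the arms overlapped on 3 of 5 days. Its call was the least stable of the 12. It remained in 7 of 20 leave-one-out fits, those without scrambled library 1 of day 0, scrambled library 2 of day 2, 4 or 8, knockdown library 2 of day 0, or knockdown library 1 of day 2 or 4. It also ended with no filter (adjusted p = 0.0580), with median centring (0.0603) and on recovered reads (0.0518).

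The abundant chains Lamb1, Lamc1 and Lamb2 did not pass. Lamb1 differed by -0.14 (adjusted p = 0.285) and Lamc1 by -0.20 (adjusted p = 0.185). Lamb2, the alternative beta chain, differed by 0.45 (adjusted p = 0.0531). It read 178 and 103 RPM in scrambled and 295 and 286 in knockdown libraries at day 8, and 189 and 165 against 154 and 153 at day 2. Its knockdown libraries were thus the higher on days 4, 6 and 8 and the lower on day 2. Its share of the laminin beta RPKM was 41.6% in knockdown and 21.8% in scrambled cells at day 8, and 38.9% and 35.7% at day 0. Lamb2 (adjusted p = 0.0431) and Lamc1 (adjusted p = 0.0224) passed with the replicate block, and Lamb2 also in 7 of the 20 leave-one-out fits, with an adjusted p down to 0.0349 without scrambled library 1 of day 4. Lamb3, an epithelial beta chain, read 1.63 and 20.7 RPM in scrambled and 1.438 and 2.204 in knockdown libraries at day 8, so its high level belonged to scrambled library 2. Its averaged difference was -0.72 (adjusted p = 0.123).

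Itga3, Itgb1, Itga8 and Itgb7, 4 of 31 chains, had both knockdown libraries above both scrambled libraries on all 5 days, against 3.85% of all genes tested. With Itgb5 added, 5 chains did so on at least 4 days, against 9.05%. In the other direction Itga7 and Itgae were lower on at least 4 days, against 8.46%, and 0 chains on all 5, against 2.35%. On single days both knockdown libraries lay above both scrambled ones in 18.9%, 20.7%, 19.7%, 28.5% and 23.9% of all genes tested (days 0 to 8), and below both in 14.6%, 24.3%, 21.7%, 25.2% and 21.4%. Counts of days add the same direction over samples that may share 1 selected cell population, and the averaged fit likewise treats the libraries of an arm as independent. The calls of Itga3, Itgb1, Itga8, Itgb7, Itgb5, Lama5 and Lama4 remained in all 20 fits that left out 1 library. Without scrambled library 2 of day 6, knockdown library 1 of day 6 or knockdown library 1 of day 8, 7 chains were called in each fit.

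Tests within single days rest on 2 libraries per group and called few chains. Each gene had 1 spread shared by all 10 groups, so scatter among the late scrambled libraries also entered the tests of early days. Itga6 at day 2, with means of 237 RPM in scrambled and 127 in knockdown cells and no overlap, was not called. A count of 0 on an early day thus does not show that the arms were equal. At days 0, 2 and 4 limma called 0 of 31 chains, against 0.224%, 0.267% and 1.61% of all genes, with 3, 2 and 7 chains at an unadjusted p under 0.05 (6.41%, 5.02% and 10.2% of all genes). Limma voom on recovered reads also called 0 on each of these days. At day 6, 3 chains were called, all higher (4.12% of all genes, 2.68% higher): Itgb7 by 0.94 (adjusted p = 0.0012), Itga3 by 1.16 (adjusted p = 0.0066) and Itgb1 by 0.59 (adjusted p = 0.0316). At day 8, 4 were called, again all higher (5.75% of all genes, 3.39% higher): Itga3 by 1.18 (adjusted p = 0.0056), Itgb1 by 0.55 (adjusted p = 0.0340), Lama5 by 1.42 (adjusted p = 0.0347) and Itgb7 by 0.44 (adjusted p = 0.0438).

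With the replicate number as a block, 2, 9 and 7 chains were called at days 4, 6 and 8. The added ones were Itga8 and Itgb7 at day 4, Itga6, Itga8, Itgad, Itgav, Lama4 and Lama5 at day 6, and Itga8, Lama2 and Lamb2 at day 8. In fits of 1 day's table alone, 0 chains were called at days 6 and 8, and Itga6 alone at day 2 (adjusted p = 0.0289). With quantile normalization, Itgb1 was lost at days 6 and 8 (limma, adjusted p = 0.0621 and 0.0706) and Itgb7 at day 8 (0.0527). On recovered reads Itgb7 and Lama5 were lost at day 8 (limma voom, adjusted p = 0.0717 and 0.0901). With no filter, or no trend and no robust estimation, Itgb7 was lost at day 8 too (limma, adjusted p = 0.0516 and 0.0521). Without the 3 late scrambled libraries numbered 2, Itgb1 was lost on both days, and Itgb7 and Lama5 at day 8. Leaving out 1 library gave 1 to 8 called chains at day 6 and 0 to 15 at day 8. The call of Itgb7 at day 6 remained in all 20 fits. That of Itga3 at day 6 ended without scrambled library 2 or either knockdown library of day 6 (adjusted p up to 0.0863), and that of Itgb1 without the same 3 or any knockdown library of days 2 and 4 (adjusted p up to 0.272). At day 8 Itga3 was lost without library 2 of either arm at day 8 (adjusted p up to 0.0727), and Lama5 without those 2, knockdown library 1 of day 8 or either knockdown library of day 6 (adjusted p up to 0.284). Itgb1 was lost at day 8 in 11 fits, namely without scrambled library 2 of day 8, any scrambled library of day 2, or any knockdown library of days 2, 4, 6 and 8 (adjusted p up to 0.310). Itgb7 was lost at day 8 in 13 fits and remained only without 1 library of day 4, 1 scrambled library of day 6 or knockdown library 1 of day 8. The day 6 count was 8 without scrambled library 1 of day 6 and 1 without any other library of that day. The day 8 count was 15 without scrambled library 1 of day 8 and 0 without library 2 of either arm. Without the 6 late libraries numbered 2, the day 6 calls were Itgb7, Itga6 and Itga7 and the day 8 count was 0.

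Whether the arms diverged after induction was tested as the mean knockdown effect of days 4, 6 and 8 minus that of day 0, on recovered reads. Limma voom called 0 of 31 chains and 0 of 16497 genes (0%), under each of the alternatives run. At an unadjusted p under 0.05 stood 4 chains, against 7.03% of all genes. Itgb7 differed by 1.40, Itga6 by -1.89 (SE 0.681), Itgb3 by 0.79 and Itgam by 0.49, each with an adjusted p of 0.636 (limma voom). Itga6 in knockdown cells went from a mean of 62.0 RPM at day 0 to 129.9 over days 4, 6 and 8, 2.10-fold, and in scrambled cells from 44.9 to 405 RPM, 9.03-fold.

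In the authors' deposited table, which holds their own DESeq2 comparison for each day, Itga3 was called at days 6 (log2 fold change 1.29) and 8 (1.37), and Lama5 at days 6 (1.65) and 8 (1.60). The authors' deposited table also called Itgb7 at day 6 (1.87), Itga6 at days 2 (-0.81) and 6 (-1.60), and Itga7 at days 2 (-0.76), 4 (-1.32) and 6 (-1.92). Itgb3 at days 0 (-0.62) and 2 (-0.48) and Lamb3 at day 6 (-1.63) were the remaining calls in the authors' deposited table. By day these are 1, 3, 1, 6 and 2 chains of 30, 26, 31, 31 and 31 with an adjusted p in the authors' deposited table, against 1.63%, 4.72%, 2.53%, 6.16% and 3.55% of all genes.

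Genes that work with integrins inside the cell changed in both directions. Of 27 listed adhesion partners 24 were tested, and in the averaged comparison 5 were higher and 4 lower (all genes 12.3% and 13.2%), with a median log2 difference of 0.09 (all genes -0.00). Src, a kinase activated at adhesions, was higher by 0.51 (adjusted p = 3.30e-04), Zyx, which codes for the adhesion protein zyxin, by 0.49 (adjusted p = 9.54e-04), Kank2 by 0.34 (adjusted p = 0.0016) and Bcar1, the Src substrate p130Cas, by 0.25 (adjusted p = 0.0020). The other 5 that passed were Kank1, Lims2, Itgb1bp1 and Pxn, which were lower, and Ptk2, the focal adhesion kinase, which was higher. These 5 are outside the naming rule and were named after their values were seen. Of 20 listed basement membrane partners and other ligands 17 were tested, 5 higher and 3 lower (all genes 12.3% and 13.2%), with a median of 0.08. Fn1, which codes for fibronectin, was higher by 0.75 (adjusted p = 0.0092), Col4a5, a basement membrane collagen chain, by 0.64 (adjusted p = 0.0050), and Ntn1, a laminin-related guidance protein, by 0.45 (adjusted p = 0.0079). Col15a1, a collagen of the basement membrane zone, fell by 1.65 (adjusted p = 1.52e-04). Npnt, a ligand of the alpha8 chain, differed by -0.93 (adjusted p = 0.0313), opposite in direction to Itga8. Npnt is outside the naming rule too and was chosen after its values were seen. Itgbl1, a secreted relative of the beta chains that lies outside the naming rule, was higher by 1.16 (adjusted p = 4.17e-04).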

How the data were processed

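RNA-seq libraries were made with the TruSeq RNA kit v2, per the labels, and the submitters' processing notes name mm9 as the build with TopHat2 2.0.13, Bowtie2 2.2.3.0, SAMtools and DESeq2 1.10.1. Neither the annotation nor the tool that counted reads is given in the sources used here. Per day 1 table was deposited, with variance-stabilised log2 values of its 4 libraries, normalised within the table, and with a mean normalised signal per gene. For each gene the authors also deposited a test score, p-values before and after adjustment, and their own log2 fold change and its error. No library column was left unused (0).

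The transformation was inverted to the reads behind each value. Of the values of up to 100 reads, 100% came out within 0.02 of a whole read, and a gene with 0 reads had a log2 value of 5.00 to 6.94 depending on the table. RPM is per total recovered reads, and RPKM uses GENCODE M21 exon lengths, found for 31 of 31 chains. Reads are single counts without molecular identifiers, so n = 2 per group limits the precision.

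For the effect of the knockdown, limma 3.58.1 with trend and robust estimation (R 4.3.3, statmod 1.5.0) was run on the deposited log2 values over all 20 libraries, with a mean per group or with day as a factor. Time courses, and the change of the effect, were tested with limma voom on recovered reads, scaled by median ratios over all libraries. The 16497 genes with a table mean of 10 or more normalised counts on any day entered, and Benjamini-Hochberg adjusted p under 0.05 counted as called. Scripts were tested on simulated data.

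Both arms number their libraries 1 and 2. The correlation, between the arms, of how libraries with 1 number deviated from their groups was 0.783, 0.702, 0.551, 0.537 and 0.468 on days 0, 2, 4, 6 and 8. Pairing by number was read from these values, as the labels name no shared culture. The replicate block was an alternative and is printed where it changes a call.

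The chains, the lists and the tests were chosen with earlier results of these data known. 1 of the 31 chains is in the counts and medians but is not reported here by itself. The other chains may be named, and chains called in a comparison are given in full. Each list gives up to 4 called genes with the smallest adjusted p in the averaged comparison. Beyond this limit, every called preadipocyte or fibroblast marker is named, as are the genes said above to be outside the naming rule. Alternatives were other filters (none, 50), quantile normalization, median centring, total reads as scaling, no trend, log2(RPM + 1), voom on recovered reads, a fit per table, the replicate block and leaving out each library.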

Additional observations from a re-analysis of the deposited data

Results flagged for a closer look

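For 3 chains both knockdown libraries lay above both scrambled libraries on some days and below both on others. Itga6 differed by 0.39 at day 0 and by -0.84, -1.32 and -1.77 at days 2, 4 and 6. Lamb2, the alternative laminin beta chain, differed by -0.18 at day 2 and by 0.63, 0.69 and 1.04 at days 4, 6 and 8. Lamb1 differed by 0.11 at day 2 and by -0.30 and -0.29 at days 6 and 8. These are log2 differences in the deposited values, from tables transformed separately. The differences between single days were not tested. The test of the late effect against that of day 0 gave adjusted p of 0.636 for Itga6 and Lamb2 and 0.913 for Lamb1 (limma voom). No group had the 4 libraries needed to look for outlying samples.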

How the results depend on the processing

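Counts of called chains moved most with the libraries and the pairing. At day 0, 2 chains (Itga3 and Itgb3) were called without the 3 late scrambled libraries numbered 2, and at day 2, 1 (Itga6) in a fit of that table alone. At day 4 the count was 1 with median centring (Itgb7), 1 with no trend and no robust estimation (Itgb1), 2 with the replicate block, and 0 to 1 leaving out 1 library. At day 6 it was 9 with the replicate block, 0 in a fit of that table alone and 1 to 8 leaving out 1 library. At day 8 it was 7 with the replicate block, 0 in a fit of that table alone, 2 with quantile normalization, 2 on recovered reads, 2 without the 3 late scrambled libraries numbered 2, 0 without the 6 late libraries numbered 2, and 0 to 15 leaving out 1 library. The averaged comparison called 7 to 14 chains leaving out 1 library. The scrambled time course called 4 to 13 chains at day 2 and 3 to 19 late leaving out 1 library, and 9 late without the 6 libraries numbered 2. Both counts of 0 in single tables rest on 4 libraries. Over all settings run, values of single chains kept their side of the threshold in 1867 cases, gained a call in 94 and lost one in 188, and 0 called values changed direction. These cases cover a chain only in comparisons where the main fit, or an alternative other than leaving out libraries, called it. The replicate block raised the averaged count from 12 to 18 and changed no call of a chain beyond those named above. Over all genes it raised the calls from 37 to 132 at day 0, from 679 to 2967 at day 6 and from 948 to 2817 at day 8. The cause of these changes was not tested. Quantile normalization moved the median of all genes by -0.11 in the late scrambled comparison. Depth limits Itgb2, Lamb3, Itgb7, Itgad, Itgae, Itgb4, Itgal, Itgb8, Itga2 and Itga4, each with under 10 reads in at least 1 library. Each arm has 2 libraries per day, which sets the precision of every single-day value.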
